A study of Rattus norvegicus with 36 samples.

Results

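The genes described are the solute carriers that move glucose, amino acids and monocarboxylates across membranes, in rat mammary cancers and normal mammary tissue. They were taken as every probe set whose single annotated symbol belongs to solute carrier family 1, 2, 3, 5, 6, 7, 16, 36, 38 or 43, which gave 106 probe sets for 78 genes, among 20832 probe sets with a single symbol for 14218 genes. The families also hold carriers of other substrates, such as serotonin (Slc6a4), iodide (Slc5a5) and myo-inositol (Slc5a3), and these were kept because the choice rested on family names alone. Of the 78 genes, 57 reached an intensity above 125.8 on at least 3 arrays and were tested. The other 21, among them all 3 measured members of family 36, did not. Of the 57, 1 passed that level in normal tissue only (Slc1a2) and 4 in cancers only (Slc16a13, Slc6a15, Slc6a17 and Slc38a4), so that passing the filter and differing were not independent for these 5.

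The arrays came from female Sprague-Dawley rats, 33 from mammary cancers and 3 from normal mammary tissue, 1 array per sample. The cancers arose after radiation alone (n = 4), after MNU alone with mutated (n = 5) or nonmutated H-ras (n = 4), after PhIP alone with mutated (n = 1) or nonmutated H-ras (n = 3), after radiation followed by MNU with mutated (n = 5) or nonmutated H-ras (n = 4), after radiation followed by PhIP (n = 4), or spontaneously in untreated rats (n = 3). All radiation-only, radiation plus PhIP and spontaneous cancers were labelled H-ras nonmutated. Radiation was 1 Gy of gamma rays to the whole body at an age of 7 weeks. MNU, an alkylating carcinogen, was injected at 40 mg/kg, and PhIP, a heterocyclic amine formed in cooked meat, was given by gavage at 40 mg/kg/day, each 3 days after the irradiation where both were given. From the age of 9 weeks the feed of all rats contained 23.5% corn oil, and the normal tissue came from untreated rats. The labels do not give the age at sampling.

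Glucose enters most cells through the facilitative carriers of family 2, while family 5 couples uptake of sugars, vitamins and other solutes to sodium. Large neutral, cationic and cystine-exchanging light chains of family 7 work in part as heterodimers with the heavy chains Slc3a2 and Slc3a1. Families 1, 6, 38 and 43 hold further amino acid carriers, and family 16 moves lactate and other monocarboxylates with basigin (Bsg) as a chaperone for its best-known members. Slc7a5, Slc1a5, Slc2a1 and Slc16a3 are widely studied as carriers that cancers express at high levels, and Slc2a4 is the insulin-responsive carrier of fat and muscle.

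Probe sets differ in how brightly they report a transcript, so intensities are compared between samples for 1 gene and never between genes. Differences are on the scale log2(intensity + 42.8), which understates changes of dim genes, and p-values are from limma, adjusted by the Benjamini-Hochberg method over 11773 genes. With an adjusted p under 0.05 as the threshold, 25 of the 57 transporter genes differed between cancers and normal tissue, which is 43.9% of them, against 34.4% of all genes tested. Of these, 7 rose and 18 fell. The 7 included Slc16a13 and Slc6a15, which passed the filter in cancers only. Slc1a2, among the 18, passed it in normal tissue only. Those that rose were 12.3% of the transporters, against 18% of all genes, and those that fell were 31.6%, against 16.3% of all genes. A change of at least 2-fold past the threshold was found for 14 transporters, or 24.6%, against 8.38% of all genes. Slc16a13, Slc6a15 and Slc1a2 were among these 14, and the size of their differences moved with the added constant. With the 40th percentile of intensities in place of 42.8 they differed by 0.91, 0.65 and -1.03, the first 2 under 2-fold. All these shares describe the genes that passed the filter and are no test of the group. The median difference, cancers minus normal tissue, was -0.24 over the 57 transporters and 0.02 over all genes. In 7 transporters, or 12.3%, all 33 cancers lay on one side of all 3 normal tissues, against 8.18% of all genes. Slc16a13 and Slc1a2 were among these 7. The 3 normal tissues weigh heavily, since 12 of the 25 calls held without each of them in turn and the count was 16 without normal tissue 3. The labels do not tell whether the samples of a group came from separate rats, so p-values measure the spread between these samples.

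Counts by family, with each gene's value in the plot of differences by family, were small. They stand beside 18% of all genes tested that rose and 16.3% that fell, and 12.3% and 31.6% of all tested transporters. Facilitative sugar carriers had 0 of 8 genes that rose and 1 that fell, and sodium-coupled carriers of family 5 had 0 of 4 that rose and 3 that fell. Family 1 had 0 of 5 that rose and 3 that fell, and family 38 had 0 of 9 that rose and 3 that fell. In family 7, 3 of 10 genes rose and 3 fell, and in family 6, 2 of 11 rose and 1 fell. Among monocarboxylate carriers 1 of 6 rose and 2 fell. Of the heavy chains Slc3a1 rose and Slc3a2 fell, and of the 2 genes of family 43 Slc43a1 fell. The rise among monocarboxylate carriers (Slc16a13) and 1 of the 2 in family 6 (Slc6a15) passed the filter in cancers only. Among the 3 falls of family 1, Slc1a2 passed it in normal tissue only. For these genes passing the filter and differing were not independent.

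**Figure D1:**
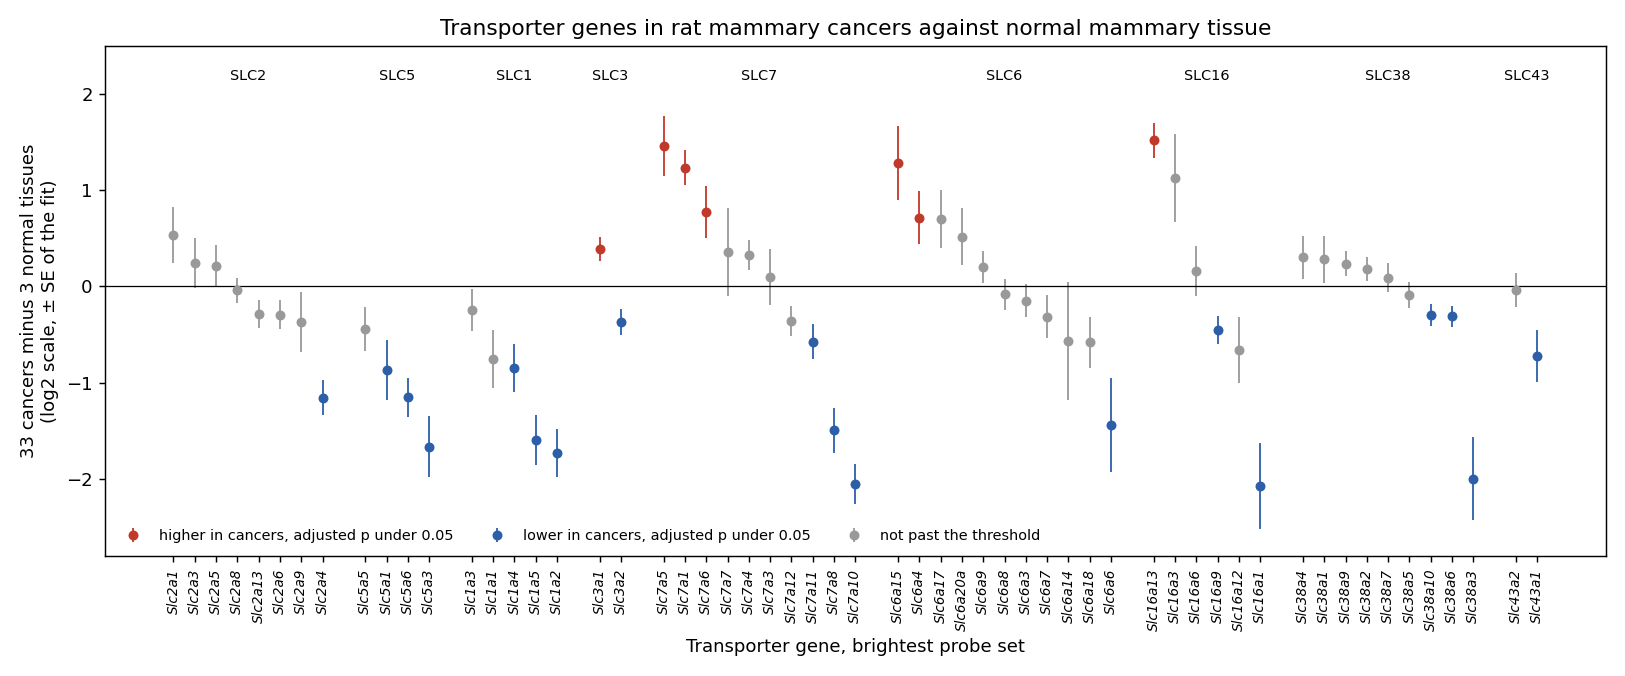
Difference between 33 cancers and 3 normal tissues for each of the 57 tested transporter genes, on the log2 scale with the standard error of the fit, grouped by family along the horizontal axis. Red points rose (7 genes), blue points fell (18 genes) and grey points did not pass an adjusted p of 0.05. The red points lie mainly in families 7 and 6, and the differences run between -2.07 for Slc16a1 and 1.52 for Slc16a13. Of the red points Slc16a13 and Slc6a15 passed the intensity filter in cancers only, and of the blue points Slc1a2 in normal tissue only.

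Markers of several cell types also differed between cancers and normal tissue. Adipocyte markers fell in 9 of 10 measured genes, with a summed intensity of 2037 to 5841 in the cancers, against 25726 to 39834 in normal tissue, and the ranges did not overlap. Endothelial markers fell in 8 of 8, with sums of 1997 to 5088 in cancers and 6739 to 9700 in normal tissue. Luminal epithelial markers rose in 8 of 13 and fell in 1, with overlapping sums of 44688 to 74669 in cancers and 46108 to 60875 in normal tissue. Basal markers rose in 3 of 8 and fell in 1, macrophage markers fell in 5 of 8, fibroblast markers in 2 of 8, milk genes in 2 of 5, and both measured B and plasma cell markers and 1 of 2 nerve markers fell. Past the same threshold 18% of all genes tested were higher and 16.3% lower, and the marker lists are short. None of the 7 T and NK cell or 5 skeletal muscle markers passed the threshold in either direction. No marker was at 0 on any array, and the lowest single intensity of the adipocyte list was 3.22. The part of these shifts in the transporter differences was not tested, and in bulk tissue fewer cells of a type and less RNA per cell cannot be told apart. In the MNU group with nonmutated H-ras, replicate 4 had a hexokinase 3'/5' signal ratio of 12.3, against 1.66 to 4.66 on the other arrays. The mean log2 3'/5' ratio of hexokinase, Gapdh and actin was 0.79, 0.61 and 0.77 in normal tissues 1, 2 and 3. In cancers it was 0.33 to 0.67, except 1.66 on that array and 0.90 in MNU replicate 1 with mutated H-ras. With this ratio as a covariate only Slc38a10 of the called transporters lost its call. Its part in the differences was not otherwise tested. Normal tissue 3 had a highest intensity of 32544, against 18611 and 18771 in normal tissues 1 and 2.

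Of the 7 genes that rose, 3 were amino acid carriers of family 7. Slc7a5, the light chain of the large neutral amino acid exchanger LAT1, had intensities of 432 to 3366 with a median of 1071 in the 33 cancers, against 428, 198 and 508 in the 3 normal tissues. It was above all normal tissues in 32 of 33 cancers, and the 1 exception was a cancer after radiation alone. The difference was 1.46 ± 0.31 (SE), or 2.75-fold, with an adjusted p of 0.000601 in limma. By group the mean lay 0.92 above normal in the single PhIP cancer with mutated H-ras and up to 1.82 above it in radiation plus MNU cancers with mutated H-ras.

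Slc7a1, the main carrier of arginine and lysine, had intensities of 1097 to 3167 (median 1675) in cancers and 902, 486 and 806 in normal tissue. The groups did not overlap. It rose by 1.24 ± 0.18 on the log2 scale (adjusted p = 8.7e-06 in limma), and its other 2 probe sets rose as well, by 1.04 and 0.87. Slc7a6, which exchanges cationic for neutral amino acids with Slc3a2, had 445 to 1706 (median 695) in cancers and 441, 287 and 555 in normal tissue, with 26 cancers above all normal tissues. Its difference of 0.77 ± 0.27 had an adjusted p of 0.0255 in limma, which became 0.0632 without normal tissue 1 and 0.224 without normal tissue 2.

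The heavy chains moved in opposite directions and by little. Slc3a2, the heavy chain that brings Slc7a5 and its relatives to the cell surface, had intensities of 3781 to 7483 (median 5703) in cancers, against 5981, 7409 and 8309 in normal tissue. The groups overlapped, with 19 of 33 cancers below all normal tissues. The difference was -0.37 ± 0.14 with an adjusted p of 0.0405 in limma, and it missed the threshold after quantile normalization, where the difference was -0.16 (adjusted p = 0.395). Leaving out normal tissue 2 or 3 gave an adjusted p of 0.143 or 0.272, and leaving out spontaneous cancer 1 or 3 gave 0.052 or 0.053. Slc3a1, the heavy chain of the cystine and dibasic amino acid carrier of kidney, had 115 to 263 (median 186) in cancers and 131, 122 and 142 in normal tissue. It was higher in 30 of 33 cancers than in any normal tissue, with a difference of 0.39 ± 0.12 and an adjusted p of 0.0153 in limma, which became 0.0552 without normal tissue 1 and 0.091 without normal tissue 2.

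Other light chains fell. Slc7a10, a carrier of small neutral amino acids that is known as a gene of adipocytes and brain, had 44.3 to 267 (median 125) in cancers and 1308, 366 and 612 in normal tissue, with no overlap. Its difference of -2.05 ± 0.21 had the smallest adjusted p of the transporters, 1.51e-08 in limma. Slc7a8, the second large neutral amino acid exchanger, LAT2, had 140 to 744 (median 286) in cancers and 598, 1151 and 1066 in normal tissue. One cancer exceeded the lowest normal tissue, and the difference was -1.50 ± 0.23 (adjusted p = 1.52e-05 in limma). Slc7a5 and Slc7a8, which take up overlapping amino acids, thus differed from normal tissue in opposite directions.

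Slc7a11, which exchanges cystine for glutamate and feeds glutathione synthesis, had intensities of 67.6 to 281 (median 119) in cancers, against 209, 161 and 235 in normal tissue. It lay below all normal tissues in 26 of 33 cancers and above them in 1, a PhIP cancer with nonmutated H-ras. The difference of -0.57 ± 0.18 had an adjusted p of 0.0173 in limma, and without normal tissue 1 or 3 it was 0.0714 or 0.13. Among 18 measured genes of amino acid and glutathione use 3 rose and 4 fell. Gss, which makes glutathione, rose by 1.02 and Cth, which makes cysteine, fell by 2.28 on the log2 scale. Gclc, Gclm and Cbs of the same list did not pass, with differences of -0.24, 0.02 and 0.43 (adjusted p = 0.499, 0.901 and 0.307 in limma).

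Glutamate and neutral amino acid carriers of family 1 fell in 3 of 5 tested genes. Slc1a5, the glutamine exchanger ASCT2, had intensities of 185 to 776 (median 331) in cancers, against 1634, 671 and 1193 in normal tissue. Only 1 cancer, after radiation alone, was above the lowest normal tissue. The difference of -1.60 ± 0.26 corresponded to a 3.03-fold lower level, with an adjusted p of 2.94e-05 in limma. Slc1a4, the related exchanger of alanine and serine, had 108 to 370 (median 227) in cancers and 423, 401 and 486 in normal tissue without overlap. It fell by 0.85 ± 0.25 on the log2 scale (adjusted p = 0.00922 in limma, 0.064 without normal tissue 3).

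Slc1a2, a glutamate carrier known from astrocytes, had 6.01 to 95.3 (median 17.3) in cancers and 150, 202 and 222 in normal tissue without overlap. Its difference was -1.73 ± 0.25 (adjusted p = 6.29e-06 in limma). The gene passed the intensity filter in normal tissue only, so passing and falling were not independent. Without the filter on low intensities another probe set became the brightest for this gene, with a difference of -0.06 (adjusted p = 0.831), so the call rested on 1 of its probe sets. With the 40th percentile as the constant the difference was -1.03. The remaining genes of the family, Slc1a1 and Slc1a3, did not pass, with differences of -0.75 and -0.24. Another probe set of Slc1a1 differed by -0.07.

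**Figure D2:**
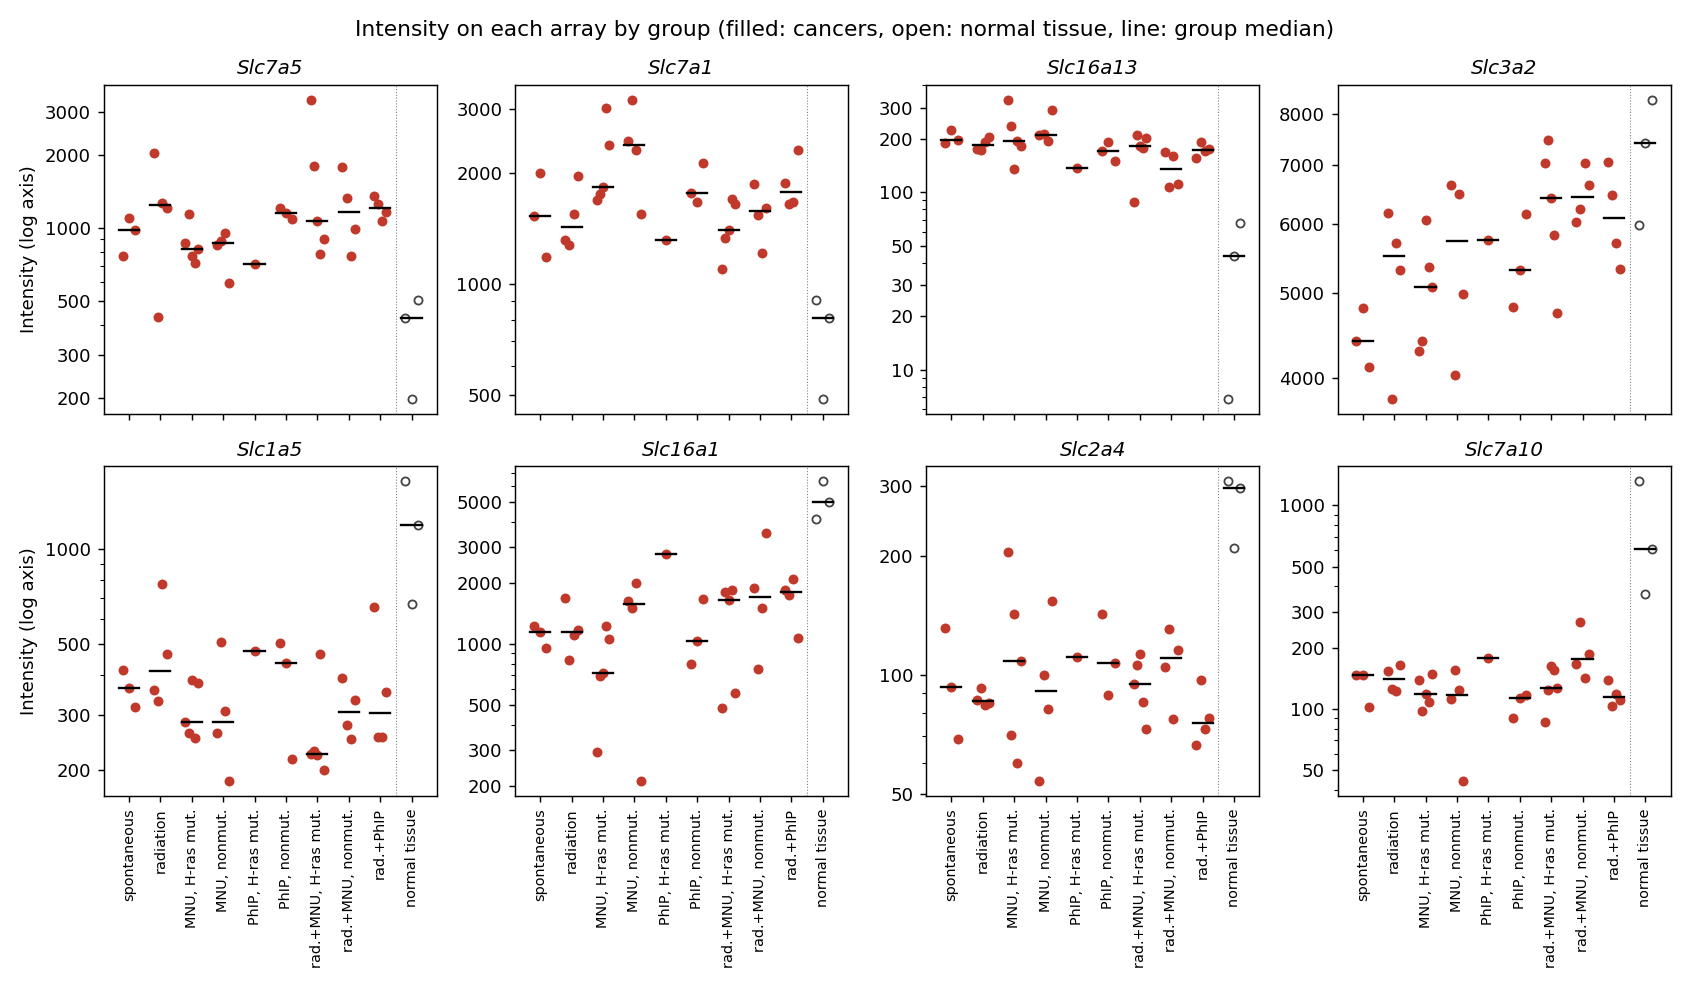
Intensity on each array, on a log axis, for 8 transporter genes in the 9 cancer groups (filled points) and normal tissue (open points at the right); lines mark group medians. Slc7a1 and Slc16a13 were above, and Slc16a1, Slc2a4 and Slc7a10 below, all 3 normal tissues in 33 of 33 cancers, while Slc3a2 overlapped.

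Glutamine and related amino acids also pass through family 38. Slc38a3, a glutamine carrier of liver, kidney and brain, had 7.61 to 610 (median 160) in cancers, against 790, 846 and 549 in normal tissue. Its lowest value came from the MNU cancer with nonmutated H-ras, replicate 4. One cancer was above the lowest normal tissue, and the difference was -1.997 ± 0.43 (adjusted p = 0.00068 in limma). The more widely expressed Slc38a1 and Slc38a2, which load cells with neutral amino acids, did not pass. Slc38a1 had 59.97 to 361 (median 126) in cancers and 150, 86.0 and 101 in normal tissue, with a difference of 0.28 ± 0.24 (adjusted p = 0.383 in limma). Slc38a2 had 2509 to 4462 (median 3078) in cancers and 3601, 2204 and 2778 in normal tissue, with a difference of 0.18 ± 0.13 (adjusted p = 0.272 in limma). Without normal tissue 1 or 2 the difference was 0.45 or 0.16 for Slc38a1 and 0.36 or 0.01 for Slc38a2. Slc38a10 fell by 0.30 ± 0.12 on the log2 scale with an adjusted p of 0.0476 in limma, and was called in 22 of 48 alternative settings. Without normal tissue 2 its difference was -0.17 (adjusted p = 0.376).

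In family 43, Slc43a1, a carrier of branched-chain amino acids, had 73.1 to 335 (median 109) in cancers and 195, 221 and 333 in normal tissue, with 28 cancers below all normal tissues. Its difference of -0.73 ± 0.27 had an adjusted p of 0.0371 in limma, and 0.05, 0.0841 and 0.249 without normal tissue 1, 2 or 3 in turn. Slc43a2 differed by -0.03 ± 0.18.

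Family 6 gave rises in Slc6a15 and Slc6a4 and a fall in Slc6a6. Slc6a15, a sodium-coupled carrier of branched-chain amino acids known from neurons, had intensities of 5.58 to 247 (median 79.7) in cancers, against 3.42, 3.96 and 9.87 in normal tissue. It was above all normal tissues in 32 of 33 cancers, with a difference of 1.29 ± 0.38 (adjusted p = 0.0106 in limma, 0.052 without normal tissue 2). The size of this difference is set by the added constant, because all 3 normal intensities lie far under it. It was 2.07 with the 10th percentile of intensities as the constant and 0.65 with the 40th. Slc6a15 passed the intensity filter in cancers only, so passing and rising were not independent. Slc6a4, the serotonin carrier, had 105 to 559 (median 234) in cancers and 144, 105 and 163 in normal tissue. Its difference of 0.72 ± 0.28 had an adjusted p of 0.0459 in limma and was called in 28 of 48 alternative settings.

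Slc6a6, the taurine carrier, had 240 to 3118 (median 1275) in cancers and 4183, 2591 and 2675 in normal tissue, with 30 cancers below all normal tissues. The difference of -1.44 ± 0.49 (adjusted p = 0.0232 in limma) missed the threshold without normal tissue 1, 2 or 3 (adjusted p = 0.127, 0.0582 and 0.0628), and the gene's other probe set differed by -0.32. Slc6a14, which takes up nearly all neutral and cationic amino acids, had the widest spread over cancers of the tested transporters, with an SD of 1.00 on the log2 scale. Its intensities were 11.4 to 574 (median 47.0) in cancers and 67.3, 399 and 97.4 in normal tissue, and its difference of -0.56 ± 0.61 did not pass and turned to 0.05 without normal tissue 2. For some other genes of this family the probe sets did not move alike. The brightest probe set of the glycine carrier Slc6a9 differed by 0.21, while its other 2 rose by 0.96 and 0.86. The brightest of the creatine carrier Slc6a8 differed by -0.08, while the other rose by 0.47. For Slc6a17 the brightest differed by 0.70 and another by -0.08, neither past the threshold.

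None of the 8 tested carriers of family 2 rose. Slc2a1, the basal glucose carrier GLUT1, had 1310 to 5341 (median 2094) in cancers, against 1402, 1614 and 1564 in normal tissue. In 27 of 33 cancers it exceeded all normal tissues and in 3 it lay below them, and the difference of 0.54 ± 0.29 did not pass (adjusted p = 0.157 in limma). Slc2a3, the high-affinity glucose carrier of neurons, had 195 to 905 (median 337) in cancers and 307, 287 and 290 in normal tissue, with a difference of 0.24 ± 0.26 (adjusted p = 0.492 in limma). Slc2a4, the insulin-responsive carrier GLUT4, had 54.0 to 205 (median 93.3) in cancers and 309, 209 and 296 in normal tissue without overlap. It fell by 1.16 ± 0.18 on the log2 scale (adjusted p = 1.54e-05 in limma), and its second probe set fell by 1.10.

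The sodium-coupled carriers of family 5 that fell were of varied substrates. Slc5a3, the myo-inositol carrier, had 315 to 1817 (median 938) in cancers, against 1599, 5627 and 2753 in normal tissue, and 32 cancers lay below all normal tissues. Its difference was -1.66 ± 0.32 (adjusted p = 0.000179 in limma). Slc5a6, the carrier of biotin and pantothenate, had 359 to 1514 (median 692) in cancers and 1499, 2075 and 1278 in normal tissue, with 32 cancers below all normal tissues. Its difference was -1.15 ± 0.21 (adjusted p = 7.98e-05 in limma). Slc5a1, the intestinal sodium-glucose carrier, had 12.8 to 220 (median 65.0) in cancers and 115, 283 and 130 in normal tissue. It fell by 0.87 ± 0.31 on the log2 scale (adjusted p = 0.0323 in limma), and without normal tissue 2 the difference was -0.54 with an adjusted p of 0.297. Slc5a5, the iodide carrier of thyroid and lactating breast, had 55.4 to 246 (median 121) in cancers and 160, 146 and 253 in normal tissue, and its difference of -0.44 ± 0.23 did not pass (adjusted p = 0.135 in limma). Without normal tissue 3 that difference was -0.25.

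Among monocarboxylate carriers the 2 best-known lactate carriers and Slc16a13 are described. Slc16a1, the lactate and pyruvate carrier MCT1, had intensities of 211 to 3549 (median 1224) in cancers, against 4124, 6340 and 5027 in normal tissue, with no overlap. Its difference of -2.07 ± 0.45 was a 4.21-fold lower level (adjusted p = 0.000671 in limma). Cancers spread widely, with an SD of 0.81 on the log2 scale. Slc16a13, a little-studied member, had 88.0 to 331 (median 182) in cancers and 6.83, 43.5 and 67.4 in normal tissue without overlap, and rose by 1.52 ± 0.18 on the log2 scale (adjusted p = 2.23e-07 in limma). The gene passed the intensity filter in cancers only, so passing and rising were not independent. With normal tissue this dim, the difference moved with the constant, to 2.05 with the 10th percentile and 0.91 with the 40th, and stayed past the threshold.

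Slc16a3, the lactate exporter MCT4 of glycolytic cells, had 93.7 to 1578 (median 528) in cancers and 266, 151 and 261 in normal tissue. It exceeded all normal tissues in 30 of 33 cancers and lay below them in 2. The difference of 1.13 ± 0.45 just missed the threshold (adjusted p = 0.0538 in limma) and passed it without the MNU cancer with nonmutated H-ras, replicate 4, which held the lowest value (adjusted p = 0.0176). Without normal tissue 1, 2 or 3 the adjusted p was 0.0952, 0.239 or 0.111 in limma. Slc16a3 was called in 9 of 48 alternative settings. The chaperone gene Bsg rose by 0.43 ± 0.09 on the log2 scale, above all normal tissues in 33 of 33 cancers (adjusted p = 0.000569 in limma). Among 17 measured genes of glucose use 6 rose and 2 fell, against 18% higher and 16.3% lower over all genes. Hk1, the first step of glycolysis, rose by 0.90, Tpi1 by 0.91, Pfkm by 0.73, Pgk1 by 0.63, Pfkp by 0.54 and Pdk1 by 0.44 on the log2 scale. Ldhb and Pdk4 fell, with differences of -1.04 and -3.46.

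Genes of the amino acid response, in which ATF4 raises carriers and synthetic enzymes when amino acids are short, fell in 4 of 9 and rose in 0, against 16.3% lower and 18% higher over all genes. Those that fell were Atf4 itself with -0.34, Trib3 with -0.61, Chac1 with -0.50 and Eif4ebp1 with -0.77, while Sesn2, which did not pass, had 0.42 and was above all normal tissues in 26 of 33 cancers. Among 18 genes of amino acid and glutathione use 3 rose and 4 fell, shares near the same all-gene values of 18% higher and 16.3% lower. The 3 that rose were Gss, Got2 at 0.71 and Gpt2 at 0.61, both aminotransferases, and the 4 that fell were Cth, Asns, the asparagine synthetase, at -1.71, Phgdh, the first enzyme of serine synthesis, at -1.07 and Glul, the glutamine synthetase, at -0.47. Promoters are shown for a pair of carriers that rose (Slc7a5, Slc7a1) and a pair that fell (Slc1a4, Slc16a1), to let their sequences be read side by side. They were picked after their values were seen. They come from RefSeq on build GRCr8 and run from 250 bases before to 50 bases after the annotated start, at chr19:66872363-66872662 (minus strand) for Slc7a5, chr12:11664238-11664537 (plus strand) for Slc7a1, chr14:98761513-98761812 (minus strand) for Slc1a4 and chr2:194812410-194812709 (plus strand) for Slc16a1. Capitals mark matches, on either strand, of the amino acid response element TGATGNAAN and of the E-box CACGTG, the motif of MYC and related factors.
Slc7a5: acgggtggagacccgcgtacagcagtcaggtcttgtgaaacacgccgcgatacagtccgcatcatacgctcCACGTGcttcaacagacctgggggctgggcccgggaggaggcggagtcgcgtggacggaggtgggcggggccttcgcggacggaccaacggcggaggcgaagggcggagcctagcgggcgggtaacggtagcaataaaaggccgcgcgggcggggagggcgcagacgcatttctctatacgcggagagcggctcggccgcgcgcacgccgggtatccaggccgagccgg
Slc7a1: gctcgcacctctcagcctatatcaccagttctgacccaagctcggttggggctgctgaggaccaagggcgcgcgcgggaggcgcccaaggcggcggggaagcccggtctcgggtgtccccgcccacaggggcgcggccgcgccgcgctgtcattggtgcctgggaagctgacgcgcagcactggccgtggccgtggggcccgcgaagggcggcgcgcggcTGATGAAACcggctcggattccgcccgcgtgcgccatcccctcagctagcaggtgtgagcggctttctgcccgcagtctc
Slc1a4: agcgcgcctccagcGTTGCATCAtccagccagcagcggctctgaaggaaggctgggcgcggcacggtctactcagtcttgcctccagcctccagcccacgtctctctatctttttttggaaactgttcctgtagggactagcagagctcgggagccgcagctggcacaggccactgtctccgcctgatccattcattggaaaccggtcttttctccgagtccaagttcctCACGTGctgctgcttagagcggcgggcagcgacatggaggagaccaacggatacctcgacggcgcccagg
Slc16a1: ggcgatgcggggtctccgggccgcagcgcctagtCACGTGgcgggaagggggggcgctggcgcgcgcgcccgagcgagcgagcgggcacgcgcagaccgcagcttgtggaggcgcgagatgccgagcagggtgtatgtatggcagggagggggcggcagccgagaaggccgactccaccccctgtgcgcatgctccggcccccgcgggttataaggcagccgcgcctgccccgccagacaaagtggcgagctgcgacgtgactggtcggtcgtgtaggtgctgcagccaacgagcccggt

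The amino acid response element stood in 3 of 65 transporter promoters in the table, those of Slc7a1 (TGATGAAAC, which starts 30 bases before the start), Slc1a4 (GTTGCATCA, the reverse strand, 236 bases before it) and Slc38a1 (TGATGCAAC, 142 bases before it), and in 3.97% of all 33469 promoters. The E-box stood in 10 of the 65, among them Slc7a5, Slc1a4 and Slc16a1, and in 6.42% of all promoters. The antioxidant response element TGACNNNGC stood in 10 of the 65 and in 12.1% of all. In Slc16a1 the antioxidant match, which is not in capitals outside the E-box, overlaps the E-box, and the amino acid response element overlaps neither other motif in the 4 printed promoters. Of the 7 tested carriers with an E-box, 1 rose (Slc7a5), 5 fell (Slc16a1, Slc1a4, Slc43a1, Slc5a1 and Slc5a6) and 1 did not pass (Slc38a7). Of the 3 with the amino acid response element, 1 rose (Slc7a1), 1 fell (Slc1a4) and 1 did not pass (Slc38a1), and of the 8 with the antioxidant element, 2 rose, 3 fell and 3 did not pass. Over all 57 tested transporters 12.3% rose and 31.6% fell, against 18% and 16.3% of all genes. Of the 5 E-box carriers that fell, Slc1a4, Slc43a1 and Slc5a1 lost the call without at least 1 normal tissue. The counts by motif are small and are no test of the motifs. A match describes letters in this window and is not a measured binding site.

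The 9 group differences share the same 3 normal tissues, and the 25 called genes were chosen by the pooled difference, so their shared direction is a description. All 7 genes that rose had group means above normal in 9 of 9 groups, and of the 18 that fell only Slc5a1 had a group above normal, the single PhIP cancer with mutated H-ras at 0.15. Among the 32 transporters that did not pass, 14 also had all 9 group means on one side of normal. That array, with n = 1, was the group nearest to normal tissue in 15 of the 25 called genes. For Slc16a1 it had an intensity of 2775 and a difference from normal of -0.86, while the MNU cancers with mutated H-ras had 292 to 1224 and a mean difference of -2.74. Its adipocyte marker sum was 3623 and its milk gene sum 66934, against 25726 to 39834 and 71097 to 127883 in normal tissue. Adipocyte sums reached 5841 in radiation plus MNU cancers with nonmutated H-ras, and milk sums reached 74202 in cancers after radiation alone. Neither sum was therefore particular to the PhIP cancer with mutated H-ras. With 1 array this group has no spread of its own.

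**Figure D3:**
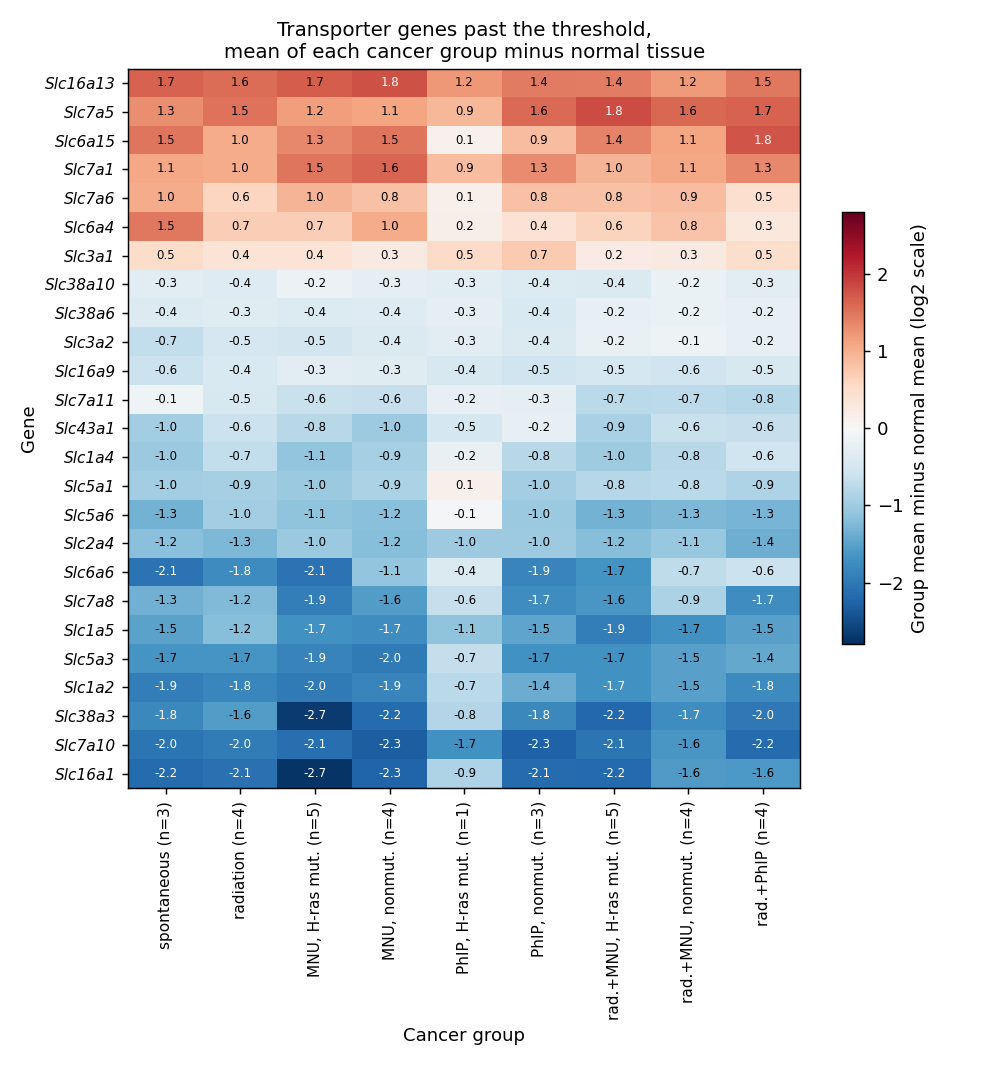
Mean of each of the 9 cancer groups (columns, with n) minus the mean of 3 normal tissues on the log2 scale for the 25 transporter genes past the threshold (rows); red is higher and blue lower than normal. The 7 upper rows are above normal in 9 of 9 groups, and the single PhIP cancer with mutated H-ras has the palest column.

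H-ras status was compared within MNU and within radiation plus MNU cancers, 10 mutated against 8 nonmutated, and the 2 differences were averaged. No transporter passed an adjusted p of 0.05 in limma, against 0% of all genes. An unadjusted p under 0.05 was found in 6 of 57 (10.5%), against 7.53% of all genes. The smallest p was that of Slc7a8, with 140 to 461 (median 204) in mutated cancers and 165 to 744 (median 345) in nonmutated cancers, and a difference of -0.57 ± 0.18 (adjusted p = 0.425 in limma). Slc7a7, the light chain whose loss causes lysinuric protein intolerance in humans, had 335 to 3272 (median 692) in mutated cancers and 571 to 4634 (median 1261) in nonmutated cancers. Its difference was -0.91 ± 0.36 (adjusted p = 0.518 in limma). Slc6a6 had 296 to 2409 (median 931) in mutated cancers and 380 to 2811 (median 1957) in nonmutated cancers, with a difference of -0.97 ± 0.38 and the same adjusted p. For these 3 genes the ranges overlapped, and 2, 1 and 1 of 10 mutated cancers exceeded the median of the nonmutated ones.

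Whether the H-ras difference itself changed with radiation was tested as an interaction. None of the 57 transporters passed in limma, against 0% of all genes, and 0 had an unadjusted p under 0.05, against 3.32% of all genes. The 3 with the smallest p were Slc7a10 at -0.59 ± 0.33, Slc38a10 at -0.32 ± 0.18 and Slc7a7 at 1.18 ± 0.72, each with an adjusted p of 1.00. Without the MNU cancer with nonmutated H-ras, replicate 4, the value of Slc7a10 was -0.35 and that of Slc7a7 0.78, and without replicate 5 of the radiation plus MNU cancers with mutated H-ras that of Slc7a7 was 0.67.

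Radiation was compared with no radiation over 4 matched backgrounds, 17 irradiated and 15 unirradiated cancers. No transporter passed in limma, against 0% of all genes, and 9 (15.8%) had an unadjusted p under 0.05, against 9.9% of all genes. Slc43a2, a carrier of branched-chain and aromatic amino acids, had 503 to 1011 (median 815) in irradiated and 433 to 868 (median 557) in unirradiated cancers. Its difference of 0.39 ± 0.11 had an adjusted p of 0.344 in limma, and 15 of 17 irradiated cancers exceeded the unirradiated median. Slc3a2 had 3781 to 7483 (median 6179) in irradiated and 4028 to 6635 (median 4986) in unirradiated cancers, with a difference of 0.24 ± 0.08 (adjusted p = 0.393 in limma), and again 15 of 17 lay above the unirradiated median. Slc38a4 had 37.0 to 138 (median 74.5) in irradiated and 39.7 to 181 (median 115) in unirradiated cancers, with a difference of -0.34 ± 0.13 (adjusted p = 0.421 in limma). The ranges overlapped for these 3 genes.

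Spontaneous cancers were set against the 19 induced cancers with nonmutated H-ras. No transporter passed in limma, against 0.068% of all genes, and 6 (10.5%) had an unadjusted p under 0.05, against 8.05% of all genes. Slc6a4 had 473, 430 and 449 in spontaneous cancers and 105 to 434 (median 234) in induced ones, so that 2 of the 3 were above all induced cancers. The difference was 0.81 ± 0.29 (adjusted p = 0.44 in limma, 0.0147 with array weights). Slc3a2 had 4412, 4803 and 4113 in spontaneous cancers and 3781 to 7063 (median 6020) in induced ones, with a difference of -0.36 ± 0.14 (adjusted p = 0.517 in limma, 0.0122 with array weights). Slc7a3, a cationic amino acid carrier, had 257 to 434 (median 310) in spontaneous and 91.7 to 901 (median 163) in induced cancers, with a difference of 0.78 ± 0.30 (adjusted p = 0.493 in limma).

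A test over all 6 nonmutated cancer groups at once called none of the 57 transporters in limma, against 0.00849% of all genes, and 7 (12.3%) had an unadjusted p under 0.05, against 8.85% of all genes. Slc43a2, Slc6a4 and Slc7a8 had the smallest p, with adjusted values of 0.511, 0.517 and 0.532. This test and the preceding comparison share the spontaneous cancers.

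Partner carriers were followed across the 33 cancers in 6 pairs, as a description over cancers that share array scaling and group structure. Slc2a1 and Slc16a3, the glucose importer and the lactate exporter, varied together with Pearson's r = 0.77 and Spearman's rho = 0.81 over n = 33. Without the 2 cancers farthest from the median of Slc2a1 r was 0.75, and for deviations from the group means it was 0.81 over the 32 cancers of groups with more than 1 array. The permutation p of r, of rho and of the within-group r was 1e-05, the smallest that 100000 resamples can give (two-sided, adjusted p = 6e-05 over the 6 pairs). Slc7a5 and Slc3a2, the 2 chains of the LAT1 heterodimer, had r = 0.49 and rho = 0.39 (permutation p = 0.003 and 0.026, adjusted p = 0.00915 and 0.045), with r = 0.32 without the 2 farthest cancers and 0.43 within groups.

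Slc16a1 and its chaperone gene Bsg ran in opposite directions, with r = -0.47 and rho = -0.60 (permutation p = 0.0052 and 0.00028, adjusted p = 0.0104 and 0.00084). Within groups r was -0.36 (permutation p = 0.042, adjusted p = 0.0836), and without the 2 cancers farthest from the median of Slc16a1 it was -0.64. Slc7a11 and Slc3a2 had r = -0.34 (rho = -0.21, adjusted permutation p = 0.0831 and 0.276), or -0.28 without the 2 farthest, and -0.07 within groups. Slc1a5 and Slc7a5 had r = 0.01 (rho = 0.09, adjusted permutation p = 0.935 and 0.62), -0.09 without the 2 farthest and 0.09 within groups. Slc2a4 and the mean of the adipocyte markers had r = 0.28 (rho = 0.38, adjusted permutation p = 0.137 and 0.045), 0.50 without the 2 farthest and 0.20 within groups.

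**Figure D4:**
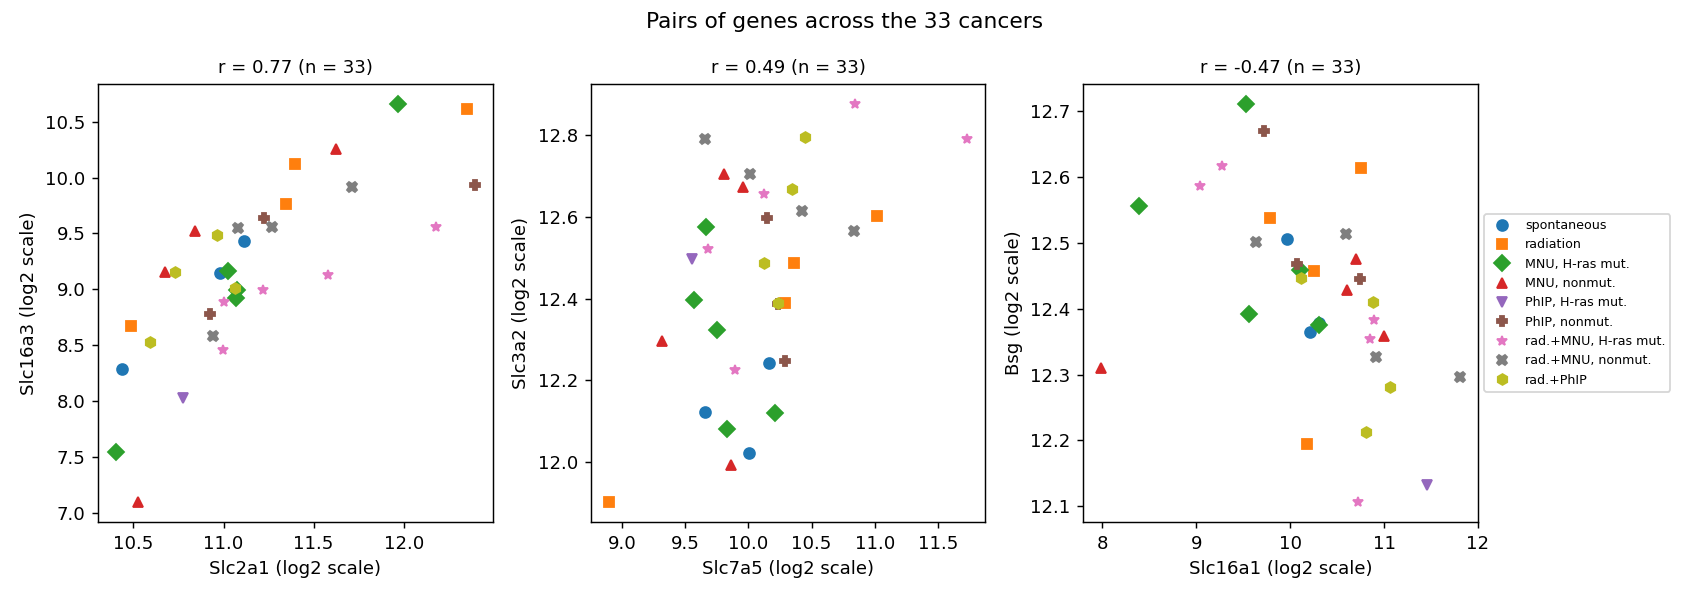
Each point is 1 of 33 cancers, with both axes on the log2(intensity + 42.8) scale and symbols for the 9 groups. Slc16a3 was higher in cancers with higher Slc2a1 (r = 0.77), Slc3a2 in those with higher Slc7a5 (r = 0.49), and Bsg was lower in those with higher Slc16a1 (r = -0.47).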

How the data were processed

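The values deposited by the authors were linear intensities, 1 for each of the probe sets on each array, and how the authors summarised probes is not given in these sources. After leaving out 2% of the values at each end, every array had a mean of 500.1, so the deposited intensities had been scaled to a common mean. Of 31099 probe sets, 20832 had 1 gene symbol in the platform annotation, 436 several and 9831 none, and all 106 transporter probe sets matched RefSeq gene identifiers.

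Values were analysed as log2(intensity + 42.8), the constant being the 20th percentile of all intensities. Probe sets above 125.8, the 40th percentile, on at least 3 arrays were kept, and the brightest stood for each symbol. limma 3.58.1 in R 4.3.3 fitted 1 mean per group over 36 arrays, with Benjamini-Hochberg adjustment over 11773 genes, after a test on simulated data. Array medians lay between 161 and 223, within-group array correlations between 0.923 and 0.979. Named genes were the 14 largest rises and falls past the threshold, the 3 smallest p-values of comparisons without a call, and 13 well-known carriers. The probe sets named for Slc6a8, Slc6a9, Slc6a17 and Slc1a1, and genes of the pathway lists, were picked after their values were seen. The transporters and lists were chosen with earlier results of these data known. Alternatives covered the constant, scaling, filter, probe sets, array weights, variance model, a replicate block, the 3'/5' ratio, equal group weights and leaving out each array. The number of arrays limits the precision.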

Additional observations from a re-analysis of the deposited data

Results flagged for a closer look

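Within groups of 4 or 5 cancers, 13 of 204 tested sets of values held 1 array far from the rest by Dixon's criterion, where chance gives about 1 in 20. All values that follow are on the log2(intensity + 42.8) scale. In the MNU group with nonmutated H-ras, replicate 4, the array with the raised hexokinase 3'/5' ratio, was lowest for Slc16a1 (7.989, the next at 10.6) and for Slc6a6 (8.724, the next at 10.96). Without being flagged, it also held the lowest cancer values of Slc38a3, Slc1a5, Slc5a3 and Slc7a10, the lower ends of the ranges given for them. The part of RNA quality in these values was not tested. Slc1a2 was highest in radiation replicate 1 (7.022), in MNU replicate 1 with mutated H-ras (6.308) and in MNU replicate 1 with nonmutated H-ras (6.767), the next array being between 5.789 and 5.802. Radiation replicate 1 was also highest for Slc5a6 (9.903) and Slc5a1 (7.458). Slc43a1 was highest in radiation replicate 3 (8.515) and in MNU replicate 3 with mutated H-ras (8.475). Among radiation plus MNU cancers with mutated H-ras, replicate 1 was lowest for Slc16a13 (7.031), replicate 4 highest for Slc1a5 (8.989) and replicate 5 highest for Slc5a5 (8.016). Slc38a10 was lowest in radiation replicate 4 (10.43, the next at 10.56).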

How the results depend on the processing

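Of the 25 transporters called between cancers and normal tissue, 11 were called in every alternative in which they were measured and 14 lost the call in at least 1 of the 48, in 13 cases without a normal tissue and in 3 without a cancer (Slc3a2, Slc6a4 and Slc38a10). The stricter filter, which tests fewer genes, left 16 called and 4 that rose. Calls higher and lower were 7 and 18 as reported, 6 and 18 after quantile normalization and 5 and 21 with array medians centred. Over all genes they were 2121 and 1924, 1954 and 2022, and 1527 and 2090 in the same order. The balance of all genes thus also moved toward falls under both other scalings. Leaving out 1 array at a time gave 16 to 26 calls, 4 to 8 that rose, 10 to 19 that fell and 11 to 15 of at least 2-fold; it gave 0 to 0 in the comparisons of H-ras status, its interaction, radiation, spontaneous cancers and nonmutated groups. With array weights 3 transporters were called over nonmutated groups (Slc6a4, Slc43a2 and Slc3a2). In spontaneous against induced cancers 5 were called with these weights (Slc6a4, Slc6a6, Slc7a11, Slc43a2 and Slc3a2). The cause was not tested. The share of all genes called with array weights is not given here, so these counts cannot be read as particular to transporters. Without 1 cancer r ranged between 0.397 and 0.546 for Slc7a5 with Slc3a2, -0.374 and -0.276 for Slc7a11 with Slc3a2, -0.631 and -0.42 for Slc16a1 with Bsg, -0.0677 and 0.154 for Slc1a5 with Slc7a5, 0.74 and 0.796 for Slc2a1 with Slc16a3, and 0.225 and 0.389 for Slc2a4 with adipocyte markers. Slc7a11 with Slc3a2 passed after quantile normalization (r = -0.386, adjusted permutation p = 0.039), and Slc16a1 with Bsg did not pass on deviations from group means (r = -0.364). Replicate numbers did not pair the samples: arrays of the same number in different groups had a median correlation of deviations of -0.000207 over 122 pairs, and 7 of 35 arrays correlated best with their own number. With the replicate number as a block 22 transporters were called, 8 that rose and 14 that fell, and the all-gene share is again not given. Slc3a2 and Slc43a1 then missed the threshold (adjusted p = 0.0576 and 0.0577 in limma) and Slc16a3 passed it (adjusted p = 0.0479 in limma).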
